A study of Arabidopsis thaliana with 11 samples.

Results

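The WRKY genes of Arabidopsis thaliana were examined as binding targets of HY5, a basic leucine zipper transcription factor that promotes seedling development in light. The members are 60 WRKY loci, looked up by locus identifier in the deposited gene list of each HY5 library, and they stand among 25262 genes listed in at least 1 library. They were put forward with their listing already known, so which libraries list them is given as a description and carries no test. The reference table names 72 WRKY loci in all, and the 12 that are not members are set beside them where they differ. Binding was read by chromatin immunoprecipitation and sequencing, with a Flag antibody and whole Columbia seedlings. All HY5 constructs were driven by the viral 35S promoter, which is active in most tissues, and carried the FLASH tag, which holds the Flag epitope. HY5ox is HY5 with no added domain (3 libraries), HY5-VP16 is HY5 with an added activation domain (3 libraries) and HY5-SRDX is HY5 with an added repression domain (2 libraries). The 3 control libraries, 2 named Col-0 and 1 named for the hy5 mutant, went through the same Flag immunoprecipitation. The sources used here do not give the genetic background of the constructs or the number of lines. All seedlings were kept in darkness for 3 days at 21 °C and then moved for 2.5 h into LED light that simulates white light, at a photon flux of 100 µmol per square metre and second.

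WRKY proteins are plant transcription factors named after the conserved amino acids of their zinc-finger DNA-binding domain, and most bind the W-box element. They are divided into group I, which has a pair of WRKY domains, groups IIa to IIe and group III. They are best known for switching defence programmes on and off downstream of MAP kinase cascades and salicylic acid, and members also act in leaf senescence, abscisic acid and drought responses, phosphate supply, and seed and trichome development. HY5 binds ACGT-containing elements such as the G-box. The data record where tagged HY5 was recovered, and hold no measurement of WRKY transcripts.

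The libraries held 11.5 M to 56.0 M tags and gave 2958 to 20509 peaks. They belong to 3 labelled sets with separate controls. Both HY5-SRDX libraries are in set 1 together with HY5-VP16 replicates 1 and 2 and HY5ox replicate 1. HY5ox replicate 2 is alone in set 2, and the replicates 3 of HY5ox and HY5-VP16 form set 3. HY5-VP16 replicate 3 stood apart. It was the deepest library but had the fewest peaks, which took up 1.83% of tags, whereas peaks of the other libraries took up 5.94% to 10.13%. HY5ox replicate 2 was collected and processed apart from the rest, per the labels. HY5-SRDX replicate 1 had the most peaks, and only 52.5% of its assignments of peaks to protein-coding genes were to promoters, against 73.7% to 86.5% in the other libraries. The labels do not say whether replicates were separate cultures, so spread and p-values refer to these libraries and may be technical.

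The 60 members were listed more often than protein-coding genes as a whole in each of the 8 libraries. They were chosen with their listing known. The 12 WRKY loci left out were below that background in all libraries except HY5-SRDX replicate 1. Over all 72 loci the shares were 59.7%, 44.4% and 59.7% in HY5ox and 59.7%, 65.3% and 29.2% in HY5-VP16. In HY5-SRDX they were 77.8% and 70.8%, and each of the 8 was above the share of protein-coding genes. In HY5ox, 42 of the 60 members were listed in replicate 1 (70.0%, against 46.4% of 27444 protein-coding genes), 32 in replicate 2 (53.3%, against 28.9%) and 42 in replicate 3 (70.0%, against 41.0%). In HY5-VP16 the numbers were 41 in replicate 1 (68.3%, against 34.9%), 43 in replicate 2 (71.7%, against 44.6%) and 21 in replicate 3 (35.0%, against 12.4%). In HY5-SRDX they were 46 in replicate 1 (76.7%, against 52.5%) and 48 in replicate 2 (80.0%, against 40.4%). The means were 38.7 ± 5.77 members in HY5ox (SD, n = 3), 35.0 ± 12.2 in HY5-VP16 (SD, n = 3) and 47.0 ± 1.41 in HY5-SRDX (SD, n = 2). Both HY5-SRDX libraries listed more members than any other library, and the ranges of HY5ox and HY5-VP16 overlapped. HY5-SRDX replicate 2 listed fewer protein-coding genes than HY5ox replicates 1 and 3 and HY5-VP16 replicate 2, yet more WRKY genes than each of them. List length moved with these numbers. With the 2958 strongest peaks of each library alone, the HY5-SRDX libraries lay at the extremes, with 13 members in replicate 1 and 30 in replicate 2, against 14 to 16 in HY5ox and 20 to 21 in HY5-VP16. As shares these were 21.7% and 50.0% of members in HY5-SRDX, 23.3% to 26.7% in HY5ox and 33.3% to 35.0% in HY5-VP16, while protein-coding genes were at 9.90% and 10.2% in HY5-SRDX, 12.8% to 13.3% in HY5ox and 11.4% to 12.4% in HY5-VP16.

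**Figure D1:**
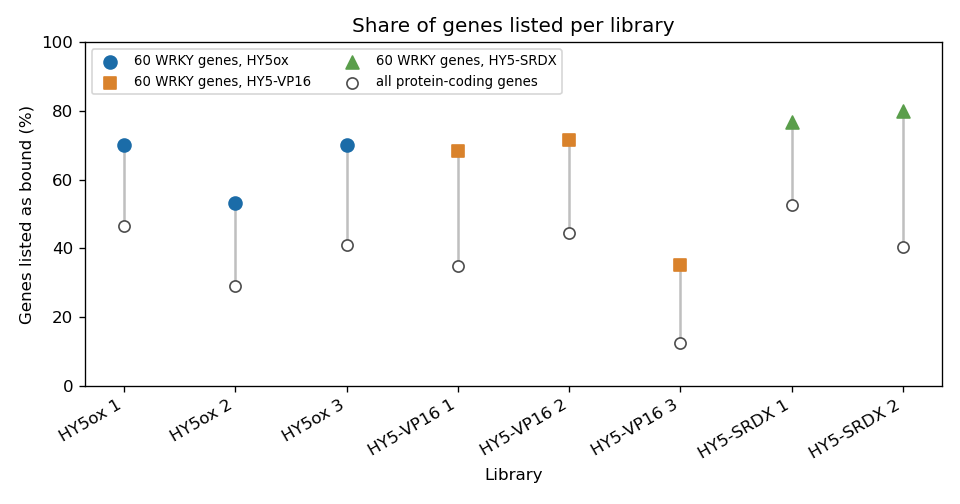
Share of genes listed as bound in each library, in percent, with filled symbols for the 60 WRKY genes and open circles for all protein-coding genes. The filled symbol is above the open one in all 8 libraries, from 35.0% against 12.4% in HY5-VP16 replicate 3 to 80.0% against 40.4% in HY5-SRDX replicate 2.

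Of the 60 members, 15 (25%) were listed in all 8 libraries, against 6.58% of protein-coding genes. They are WRKY2, WRKY4, WRKY6, WRKY7, WRKY17, WRKY23, WRKY27, WRKY28, WRKY33, WRKY35, WRKY39, WRKY51, WRKY54, WRKY57 and WRKY65. A further 13 were missing from a single library, namely WRKY1, WRKY3, WRKY8, WRKY11, WRKY15, WRKY22, WRKY25, WRKY32, WRKY38, WRKY42, WRKY47, WRKY63 and WRKY75. Together, 28 members (46.7%) were in 7 or 8 libraries, against 14.4% of protein-coding genes. HY5-VP16 replicate 3 set much of this limit, and without it 24 members (40.0%, against 11.1% of protein-coding genes) were in all the other libraries. Stricter lists held few genes throughout. With peaks of at least 5 times the control tags, 1 member, WRKY33, was in all 8 (background 1.29%), and with the 2958 strongest peaks of each library, WRKY57 and WRKY65 were (background 1.93%). At the other end, 4 members were in no library (6.67%, against 19%), namely WRKY12, which restrains secondary wall formation in pith, WRKY20, WRKY30 and WRKY50.

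The number of members listed throughout varied between subgroups. Group IId, several members of which bind calmodulin, had 3 of 6 in all 8 libraries and a median of 7.5 libraries a member, and group IIe had 3 of 7 with a median of 7.0. Group I had 3 of 12 with a median of 7.0. Group IIb had 1 of 7 with a median of 6.0, and group III had 1 of 10 with a median of 5.5. Group IIc, with 15 members, was the most uneven, with 4 in all 8 libraries, 2 in none and a median of 3.0. None of the 3 group IIa members was in all 8. These are counts of few genes and were not tested.

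**Figure D2:**
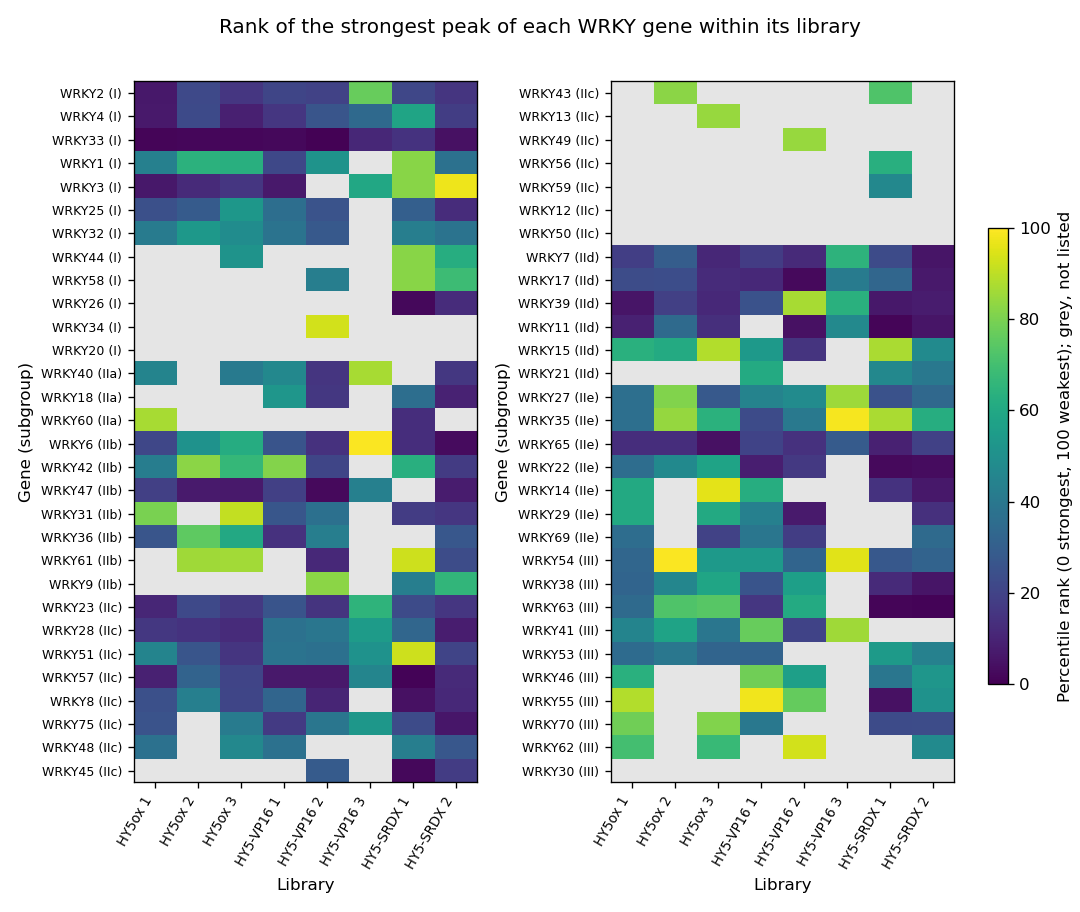
Percentile rank of the strongest peak of each of the 60 WRKY genes (rows, by subgroup) in each of the 8 libraries (columns), on a colour scale from 0 for the strongest to 100 for the weakest peak of the library, with grey where the gene is not listed. WRKY33 stays dark across its row, and WRKY12, WRKY20, WRKY30 and WRKY50 are grey throughout.

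Group I contains the member with the best mean rank. WRKY33 (AT2G38470) is a main activator of camalexin synthesis and of defence against necrotrophic fungi, and a substrate of defence MAP kinases. Strength is given as the percentile rank of a gene's strongest peak by the peak caller's score, where 0 is the strongest and 100 the weakest peak of that library. Score, tag count and fold are the authors' values, and percentiles from lists of different lengths describe a position in a list rather than an amount of binding. WRKY33 was at 1.21, 1.91 and 1.82 in HY5ox replicates 1 to 3, at 2.19, 0.699 and 11 in HY5-VP16, while the HY5-SRDX libraries had 14.6 and 4.57. The HY5ox libraries lay below both HY5-SRDX libraries, while HY5-VP16 spanned the HY5ox range. Its mean of 4.74 was the best of all members, and it was the best-ranked member in 6 of the 8 libraries, all except the HY5-SRDX ones.

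The strongest WRKY33 peak of every library fell in 1 promoter region, chr2:16106797-16107115 of TAIR10, with centres 1365 to 1439 bp upstream of the start site. The tag count per 10 M tags was 200.1, 181.6 and 259.6 in HY5ox, 141.5, 116.6 and 89.6 in HY5-VP16, while the HY5-SRDX libraries had 37.8 and 107.0. The HY5ox counts were above all others, in peaks whose widths the caller set for each library between 167 and 301 bp. The fold over the control ran from 6.16 in HY5-VP16 replicate 3 to 512.57 in HY5-VP16 replicate 2, and the denominator moved with the set. The control held 0.4 to 2.9 scaled tags there in the 5 libraries of set 1, 24.5 in HY5ox replicate 2 and 69.9 in HY5ox replicate 3. In HY5-VP16 replicate 3, where peak tags were scaled to the control instead, it held 74.0. The fold over the surrounding 10 kb, which does not use the control, had the narrower range of 4.22 to 8.95. The same peak was assigned in all 8 libraries to the neighbouring locus AT2G38465 as well, so the files do not tell which of these genes it belongs to.

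WRKY4 and WRKY2 were the other group I members in all 8 libraries. WRKY4 (AT1G13960), which acts with its close relative WRKY3 in responses to necrotrophic pathogens, had a single peak in each library, all within chr1:4775286-4775815 and 783 to 1074 bp upstream. Its percentiles were 6.78, 22.6 and 8.98 in HY5ox, 15.7, 26.2 and 34.2 in HY5-VP16, while the HY5-SRDX libraries had 58.5 and 18.1. HY5ox overlapped both other constructs. WRKY2 (AT5G56270), which acts in abscisic acid responses of germinating seeds and in pollen, had its strongest peak at the start site in 7 libraries, within chr5:22779500-22779847 and from 62 bp upstream to 27 bp downstream. In HY5-SRDX replicate 1 it lay 1275 bp upstream. WRKY3 was in 7 libraries, with 6 peaks in a single promoter region. Its percentiles were 6.5, 11.8 and 15.9 in HY5ox and 6.9 and 59.9 in HY5-VP16 replicates 1 and 3. The HY5-SRDX libraries had 82.3 and 97.5, weaker than all of these. WRKY25, which acts in heat tolerance, was in 7 at a mean percentile of 30.1. WRKY1 (ZAP1 in the reference table) and WRKY32 were also in 7, with means of 51.9 and 41.5.

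WRKY26 (AT5G07100), another group I member with a role in heat tolerance, was listed in HY5-SRDX alone. Its peaks there were at percentiles 2.18 and 12.6, with centres 16 bp downstream and 11 bp upstream of the start site and folds of 4.45 and 9.26. With a mean of 7.37 it had the second best mean among members, over 2 libraries only. In the HY5ox libraries the nearest peak lay 4406 to 4456 bp upstream of the WRKY26 start site. In HY5-VP16 it lay 4377 bp upstream, 1992 bp downstream and 4478 bp upstream. Both WRKY26 peaks were also assigned to PRA1.B6, which encodes a prenylated RAB acceptor. WRKY44, known as TTG2 for its part in trichome and seed coat development, and WRKY58 were each in 3 libraries. WRKY34, a pollen gene, was in HY5-VP16 replicate 2 alone, at percentile 93.1 in the gene body.

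In group IIa, WRKY18, WRKY40 and WRKY60 encode related proteins that form complexes with each other and modulate defence and abscisic acid responses. WRKY40 was listed in 6 libraries at a mean percentile of 41.9, WRKY18 in 4 at 28.6 and WRKY60 in 2 at 50.1. WRKY18 (AT4G31800) was listed in both HY5-SRDX libraries and in the replicates 1 and 2 of HY5-VP16, at percentiles 36.1, 9.69, 52.5 and 16.2. The strongest peak by score lay within chr4:15382002-15382425 in all 4, 903 to 1105 bp upstream, with folds of 3.32 to 8.17. HY5-VP16 replicate 2 also had a peak 16 bp downstream of the start site with a fold of 33.99, shared with AT4G31805, and HY5-VP16 replicate 1 had one 1749 bp upstream. No HY5ox library listed WRKY18, and the nearest HY5ox peaks lay 3133 to 3166 bp upstream, outside the promoter as the authors defined it. The 4 libraries are all in set 1, and HY5ox replicate 1, also in set 1, did not list it. WRKY60 had a fold of 171.78 in HY5-SRDX replicate 1, where the control held 0.4 scaled tags, and that peak was shared with AT2G24990.

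Group IIb was led by WRKY6 and WRKY47. WRKY6 (AT1G62300), which acts in senescence and in the control of phosphate export to the shoot, was at percentiles 21.1, 50.9 and 61.9 in HY5ox, 25.9, 14.1 and 99.6 in HY5-VP16, while the HY5-SRDX libraries had 13.2 and 2.84. Both HY5-SRDX values were below all others. The gene had a promoter region with peaks in all 8 libraries, chr1:23020195-23020925, with centres spread from 1041 to 1563 bp upstream. Another region lay at the start site in 6 libraries, chr1:23019160-23019498. The start-site peak was the stronger in HY5ox replicates 2 and 3 and in HY5-SRDX replicate 2, and the upstream region held the strongest peak in the other 5. WRKY47 (AT4G01720) was missing only from HY5-SRDX replicate 1. Its strongest peak lay 614 to 811 bp upstream in the 7 others, with a mean percentile of 15.1, the third best of all members. WRKY42, which acts in phosphate homeostasis, was in 7 libraries, and WRKY36 and WRKY31 were in 6 each.

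Group IIc held 4 members in all 8 libraries. WRKY57 (AT1G69310), which acts in drought tolerance and in jasmonate-induced senescence, was at percentiles 9.20, 31.9 and 20.4 in HY5ox, 6.90, 6.66 and 45.4 in HY5-VP16, while the HY5-SRDX libraries had 0.914 and 12. It was the best-ranked member in HY5-SRDX replicate 1, and the constructs overlapped on this scale. WRKY57 was the only member with more than 1 region that held peaks of all 8 libraries. The stronger region was chr1:26059046-26059645, 1072 to 1390 bp upstream, and the weaker was chr1:26057978-26058477, near the start site. WRKY23, an auxin-responsive gene of embryo and root development, was bound 1312 to 1613 bp upstream in 7 libraries and had a mean percentile of 24.3. WRKY28, an activator of salicylic acid synthesis, had a mean of 26.9, and WRKY51, which acts where salicylic acid represses jasmonate signalling, had 40.8.

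The same group held most members seen in 1 construct. WRKY13, which acts in stem lignification and flowering time, was in HY5ox replicate 3 alone, at percentile 84.5. WRKY49 was in HY5-VP16 replicate 2 alone, at 84.7. WRKY56 and WRKY59 were in HY5-SRDX replicate 1 alone, at 62.9 and 46.5, and both strongest peaks were shared with neighbours, SPO11-2 and AT2G21895. With WRKY26 and WRKY34, 6 members were listed in 1 construct only, against 24.4% of protein-coding genes. By construct, 1 member was in HY5ox alone (background 4.41%), 2 in HY5-VP16 alone (3.15%) and 3 in HY5-SRDX alone (16.9%). WRKY26 was the only one of the 6 found in more than 1 library.

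In group IId, peaks within the gene body recurred. WRKY17 (AT2G24570), which with WRKY11 limits basal resistance to bacteria, had a region chr2:10437594-10437970, 1464 to 1592 bp downstream of the start site, in 7 libraries, and it was the strongest in 6 of them. WRKY11 had a gene-body region in 5 libraries, 1282 to 1388 bp downstream, among them every HY5ox library. In both HY5-SRDX libraries WRKY11 had its strongest peak 1711 to 1781 bp upstream, shared with HCF153, at percentiles 1.36 and 5.82. That region also held a weaker peak of HY5-VP16 replicate 2, 1662 bp upstream. WRKY7 had a gene-body region in 7 libraries as well, 1362 to 1692 bp downstream. WRKY39 (AT3G04670) differed from these. All of its strongest peaks lay in chr3:1268930-1269291, 716 to 791 bp upstream.

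WRKY39 also showed a wide spread between constructs. Its percentiles were 5.78, 18.9 and 11.4 in HY5ox, 25.2, 86.9 and 63.3 in HY5-VP16, while the HY5-SRDX libraries had 6.33 and 7.80. All HY5-VP16 values were above those of both other constructs. WRKY15, which acts in growth and salt stress, was in 7 libraries. Its strongest peak lay near the start site in each and was shared with AT2G23321, while a further region upstream, in 4 libraries, was not shared. WRKY21 was in 3 libraries.

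In group IIe, WRKY65 (AT1G29280) was in all 8 libraries at a mean percentile of 15.2, the best after WRKY33 among the 15. Its values were 13.1, 12.9 and 4.47 in HY5ox, 20.3, 14.1 and 28.7 in HY5-VP16, while the HY5-SRDX libraries had 9.04 and 19.3. HY5ox lay below HY5-VP16 without overlap on this scale, with 13.1 and 14.1 as the nearest values, and HY5-SRDX overlapped both. Ranked among only the genes listed in all 8 libraries, HY5ox and HY5-VP16 overlapped, at 63.4, 42.7 and 24.3 against 66.8, 62.4 and 38.3. By fold over the control the mean of HY5ox was instead 5.09 percentile points above that of HY5-VP16. In the 6 HY5ox and HY5-VP16 libraries the strongest peak was in the gene body, 935 to 1085 bp downstream, and in HY5-SRDX it was 1030 and 34 bp upstream. These regions were not separate by construct, since HY5-SRDX replicate 2 also had the gene-body region, HY5-VP16 replicates 1 and 2 the start-site region and HY5-VP16 replicate 1 the one further upstream. WRKY27, which affects symptoms of bacterial wilt, had a mean of 47.9, with a gene-body region in 6 libraries, and WRKY35 had 62.0. WRKY22, which acts downstream of flagellin perception, was missing only from HY5-VP16 replicate 3 and had its strongest peak 984 to 1259 bp upstream.

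In group III, WRKY54 (AT2G40750), which with WRKY70 restrains senescence, was at percentiles 33, 99.4 and 53.7 in HY5ox, 54.0, 32.4 and 95.5 in HY5-VP16, while the HY5-SRDX libraries had 27.6 and 31.9. The HY5-SRDX values were below all others, though close to the lowest of each other construct. Its strongest peaks lay at the start site, in chr2:17002308-17002911. WRKY55 is the next WRKY locus along the chromosome and was in 5 libraries, but it and WRKY54 shared no peak. WRKY63, known as ABO3 for its part in abscisic acid and drought responses, was in 7 libraries and was among the strongest in HY5-SRDX, at 1.54 and 0.860, against 34.4 to 74.2 in HY5ox and 15.7 and 61.0 in HY5-VP16 replicates 1 and 2. By fold over the control HY5-SRDX replicate 1, at 7.91, was below HY5ox replicate 1 at 11.78 and HY5-VP16 replicate 1 at 12.31. WRKY38, a repressor of basal defence, was in 7 libraries at a mean of 33.9.

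WRKY41 and WRKY53 had their strongest HY5ox peaks in the gene body. WRKY41 (AT4G11070), which acts in seed dormancy, was listed in all HY5ox and all HY5-VP16 libraries and in neither HY5-SRDX library. Its peaks lay in chr4:6760364-6760754, 1186 to 1309 bp downstream, with folds of 3.02 to 6.25 close to the caller's minimum of 3. It was the only member in every HY5ox and no HY5-SRDX library (1.67% of members, background 2.84%), and the only one in every HY5-VP16 and no HY5-SRDX library (background 0.758%). In HY5-SRDX replicates 1 and 2 the nearest peaks lay 1710 and 3802 bp downstream of the WRKY41 start site. WRKY53 (AT4G23810), a promoter of leaf senescence, had its strongest peak 1198 to 1254 bp downstream in all 3 HY5ox libraries. These 3 peaks were also assigned to the neighbouring gene 3xHMG-box2. The strongest peak lay 149 and 208 bp upstream in HY5-VP16 replicate 1 and HY5-SRDX replicate 2. In HY5-SRDX replicate 1 it lay 1974 bp upstream. That upstream region also held weaker peaks in HY5ox replicates 1 and 2.

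**Figure D3:**
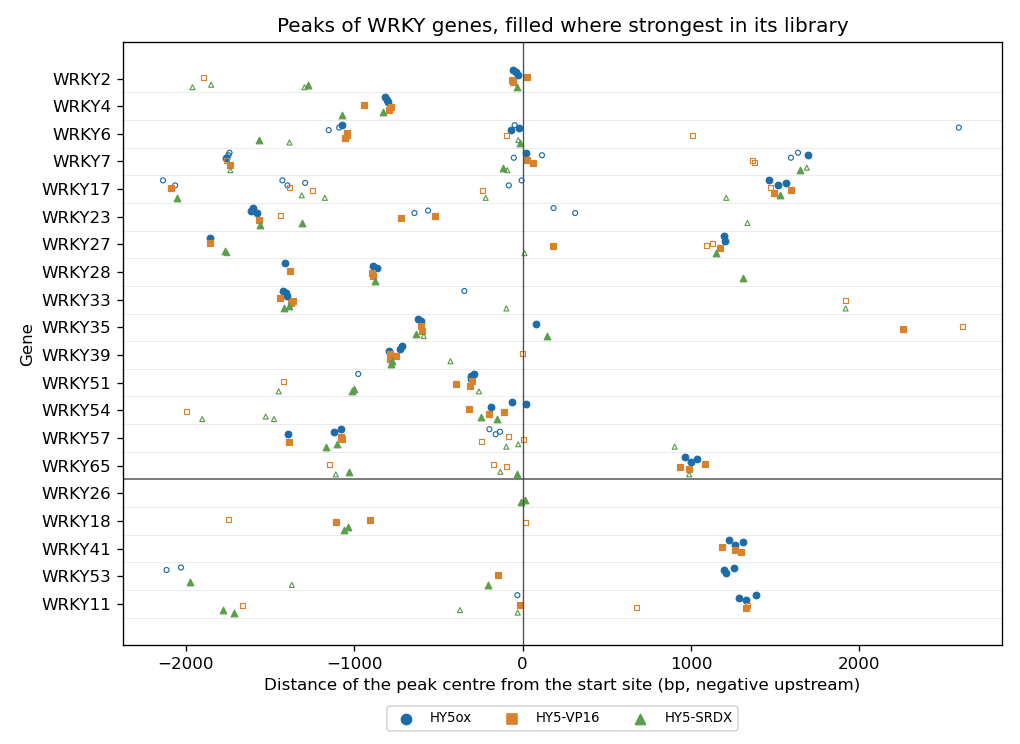
Distance of peak centres from the start site in bp for the 15 WRKY genes listed in all 8 libraries (above the line) and 5 others (below it), 1 point per peak, coloured by construct and filled where the peak is the gene's strongest in that library. The filled points of WRKY33 and WRKY39 form 1 cluster each upstream, and those of WRKY41 lie 1186 to 1309 bp downstream with no HY5-SRDX point.

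Listing was compared between constructs by members found in every library of a construct. Of the 60, 30 were in every HY5ox library (50.0%, background 23.5%), 19 in every HY5-VP16 library (31.7%, background 10.7%) and 42 in every HY5-SRDX library (70.0%, background 26.4%). The number for HY5-SRDX rests on 2 libraries rather than 3, which makes it easier to reach. In every HY5-SRDX and no HY5ox library were 6 members (background 4.43%), namely WRKY9, WRKY18, WRKY21, WRKY26, WRKY45 and WRKY58. Some had HY5ox peaks not far off. The nearest lay 2171 to 2233 bp upstream of the WRKY9 start site and 1181 to 1248 bp downstream of that of WRKY45. For WRKY21 they lay 3388 to 3426 bp downstream and for WRKY58 2763 to 3760 bp upstream. WRKY45, an activator of a phosphate transporter gene, had its strongest peaks at percentiles 2.18 and 17.7 in HY5-SRDX, 119 and 115 bp upstream and shared with AT3G01980. In every HY5-SRDX and no HY5-VP16 library were WRKY26 and WRKY44 (3.33%, background 4.67%). No member was in every HY5ox and no HY5-VP16 library (background 1.37%), and none was in every HY5-VP16 and no HY5ox library, where the background was 0.0%.

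Ranks were compared for the 15 members in all 8 libraries. Among all peaks of a library, the median percentile of these members was 16.2, 23.7 and 15.5 in HY5ox, 22.8, 19.6 and 63.3 in HY5-VP16, while the HY5-SRDX libraries had 23 and 15.4. The median over all 1913 genes in all 8 libraries was lower in each, at 8.74, 16.2 and 11, at 12.7, 9.85 and 39.6, and at 19.3 and 14.2. The median of the 15 WRKY genes was thus weaker than that of the genes bound throughout in all 8 libraries, and the gap was smallest in the HY5-SRDX libraries. To remove the effect of list length, the 1913 genes were ranked among themselves in each library. On that scale the median of the 15 members was 71.5, 64.8 and 63.9 in HY5ox, 71.0, 72.8 and 73.2 in HY5-VP16, while the HY5-SRDX libraries had 54.8 and 52.3. Both HY5-SRDX libraries lay below all others, also against the 3 other libraries of set 1. Means were 66.7 ± 4.15 (SD, n = 3), 72.3 ± 1.17 (SD, n = 3) and 53.5 ± 1.77 (SD, n = 2).

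For single genes, ranks among the 1913 were lower in HY5-SRDX than in every HY5ox library for 6 of the 15 (40.0%, background 24.7%), namely WRKY6, WRKY23, WRKY27, WRKY39, WRKY54 and WRKY57. They were lower in HY5-SRDX than in every HY5-VP16 library for 8 (53.3%, background 20.9%), namely WRKY2, WRKY6, WRKY7, WRKY23, WRKY27, WRKY28, WRKY39 and WRKY54. WRKY33 was the only member separated the other way. Both its HY5-SRDX libraries were weaker than all HY5ox libraries (background 26.1%) and all HY5-VP16 libraries (background 19.9%). In each comparison the members not named overlapped. The mean rank percentile of WRKY33 was 9.01 in HY5ox, 11.9 in HY5-VP16 and 34.2 in HY5-SRDX. Both WRKY33 differences turned when ranked by fold over the control, and HY5-SRDX was the stronger by 3.19 and 4.16 percentile points. In the other direction, WRKY6 had the largest difference between HY5ox and HY5-SRDX, with means of 91.1, 79.5 and 29.5, and WRKY39 the largest between HY5-VP16 and HY5-SRDX, with means of 82.7 and 30.8. The mean differences of WRKY39 and WRKY57 between HY5ox and HY5-SRDX also turned by fold, as did that of WRKY23 between HY5-VP16 and HY5-SRDX. Among all peaks the mean of WRKY23 was lower in HY5ox than in HY5-SRDX. Between HY5ox and HY5-VP16, WRKY2 and WRKY39 were stronger in HY5ox (background 8.89%) and WRKY17 in HY5-VP16 (background 8.26%). For WRKY17 the sign of the mean difference turned when ranked by fold. The comparisons share libraries and are not independent of each other. They also compare strongest peaks that can lie at different sites, as only those of WRKY33 and WRKY39 overlapped in all 8 libraries. In HY5-SRDX replicate 1 the strongest WRKY28 peak lay 1307 bp downstream, against 866 to 1408 bp upstream in the other libraries.

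The labelled set moved with the ranks. Deviations from the construct mean over the 1913 genes correlated at 0.29, 0.17 and 0.47 for HY5ox and HY5-VP16 libraries of the same set, and at -0.4 to 0.04 for those of different sets. Deviations from a mean cancel within a construct, so the negative values are in part forced by the positive ones. The part of the set in the comparisons above was not tested, and the exact tests below do not take it into account. Comparing libraries of the same set alone, HY5-SRDX ranked stronger among the 1913 than HY5ox replicate 1 in both libraries for 10 of the 15 members (66.7%, background 36.5%) and weaker for WRKY2, WRKY4 and WRKY33 (20%, background 37.1%). Against HY5-VP16 replicates 1 and 2, HY5-SRDX ranked stronger in all 4 pairs for 9 members (60%, background 25.6%) and weaker for WRKY33 and WRKY35 (13.3%, background 24.1%). Between HY5ox and HY5-VP16, over 3 pairs from sets 1 and 3, HY5ox ranked stronger for 5 members (33.3%, background 21.8%) and HY5-VP16 for 4 (26.7%, background 22.6%).

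On the scale of all peaks, 3 members were separated between HY5ox and HY5-VP16, as among the 1913, and fewer were separated between either of these and HY5-SRDX. HY5ox was stronger than HY5-VP16 for WRKY28, WRKY39 and WRKY65 (background 16.9%), and HY5-VP16 was stronger for none (background 0.157%). Of these members, WRKY39 alone was also separated between HY5ox and HY5-VP16 among the 1913. HY5-SRDX was stronger than HY5ox for WRKY6 and WRKY54 (13.3%, background 16.9%) and weaker for WRKY33 (6.67%, background 32.7%). HY5-SRDX was stronger than HY5-VP16 for WRKY6, WRKY27, WRKY28, WRKY39 and WRKY54 (33.3%, background 16.9%) and weaker for none (background 14.1%). No difference passed a test. Two-sided exact permutation tests over libraries, with Benjamini-Hochberg adjustment over 5739 tests (1913 genes and 3 construct pairs), gave 0 calls at 0.05 on either scale. The smallest p that 3 libraries against 3, or 3 against 2, allow is 0.1, so 0 were below 0.05 unadjusted, and the smallest adjusted p was 0.437 among all peaks and 0.362 among the 1913.

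**Figure D4:**
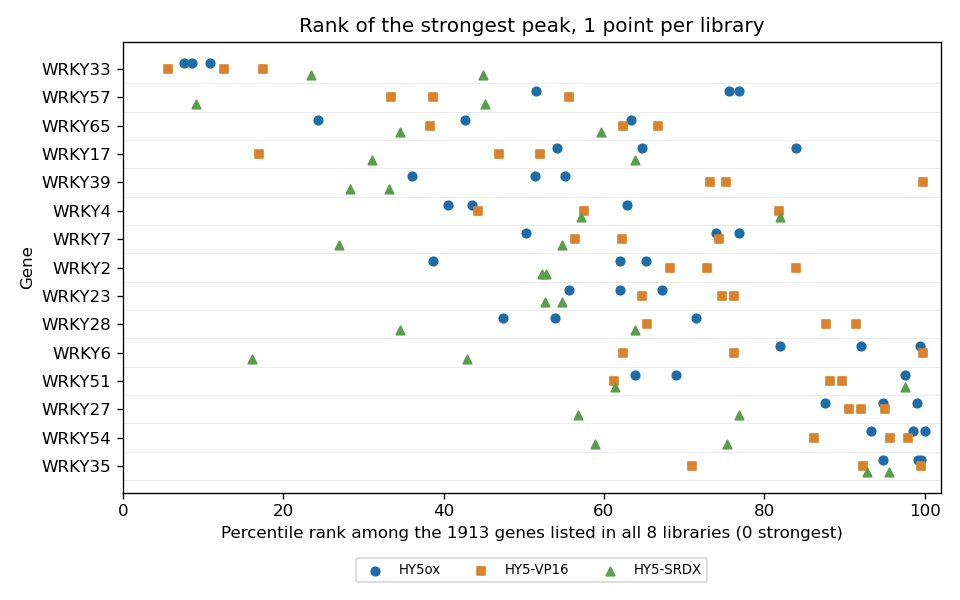
Percentile rank of the strongest peak of the 15 WRKY genes among the 1913 genes listed in all 8 libraries, 1 point per library, with 0 the strongest. The HY5-SRDX triangles lie left of the other points for WRKY6, WRKY23, WRKY27, WRKY39 and WRKY54 and right of them for WRKY33.

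Most WRKY peaks lay in promoters in every library. The share of member peaks in promoters, defined by the authors as the 2000 bp upstream, was 79.7%, 81.0% and 78.9% in HY5ox, 85.9%, 75.7% and 70.8% in HY5-VP16, while the HY5-SRDX libraries had 77.6% and 84.3%. Means were 79.9% ± 1.06 (SD, n = 3), 77.5% ± 7.70 (SD, n = 3) and 80.9% ± 4.74 (SD, n = 2), and all constructs overlapped. Over all protein-coding genes the means were 84.8%, 80.8% and 64.3%. In HY5-SRDX replicate 1 the share of 77.6% (95% Wilson interval 66.3% to 85.9%, 67 peaks, counting error only) stood against 52.5% for all genes. In the other libraries the 2 shares differed less, most in HY5-VP16 replicate 3, with 70.8% of 24 peaks (50.8% to 85.1%) against 83.8%.

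Peaks that overlapped between libraries were joined into 161 regions in 56 members, 114 in promoters and 47 in gene bodies. The peaks of a region need not all overlap each other. Those of WRKY4, with 1 peak in each library, did not. Of the 161 regions, 67 were seen in 1 library, 30 of them in HY5-SRDX replicate 1. At the other end, 7 regions in 6 members held a peak of each of the 8 libraries, all in promoters. They belong to WRKY4, WRKY6, WRKY33, WRKY39, WRKY54 and WRKY57, and the same 6 members are in the authors' deposited table of peaks merged over all libraries, which names 1272 genes. The other 9 of the 15 members were thus listed throughout without a single region found throughout. The strongest peak overlapped in all 8 libraries for WRKY33 and WRKY39 alone. No share over all genes stands beside these region and overlap counts, so they describe the members only. For scale, the authors' table names 1272 genes, and 1913 genes were listed in all 8 libraries. Most members had several regions, with 49 holding at least 2 and WRKY11, WRKY17, WRKY42, WRKY48 and WRKY70 holding 5 each.

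A strongest peak assigned to a neighbouring gene as well cannot be given to the WRKY gene alone. This held for 23 members in at least 1 library, with no share over all genes to set beside it. Among the 15 listed throughout it held for WRKY33 in 8 libraries, WRKY27 in 4 (with AT5G52840), WRKY7 in 2 (with ACBP3, an acyl-CoA-binding protein gene), WRKY2 in 1 (with AT5G56260) and WRKY6 in 1 (with AT1G62301). The other 10 shared no strongest peak. For WRKY15 and WRKY32 the strongest peak was shared in all 7 libraries that list them, with AT2G23321 and AT4G30940. WRKY25 shared it with U2B'', a spliceosome component gene, in 6 of 7, and WRKY1 with AT2G04870 in 6 of 7. WRKY55 shared it with CTEXP and WRKY61 with AT1G18850, each in 4 of 5, and WRKY53 with 3xHMG-box2 in 3 of 6. No member shared a peak with another WRKY gene.

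Genes that act with WRKY proteins were looked up in the same lists. Of protein-coding genes, 6.58% were in all 8 libraries, 7.86% were in 7 and 19% were in none. Of 13 genes of the defence MAP kinase cascade and of VQ proteins, which bind WRKY factors, 0 were in all 8 libraries, 13 were in at least 1, and 2 were in 7, the kinase gene MKK5 and VQ9. The kinase genes MPK3 and MPK6 were each in 5. The strongest peaks of MKK5, MPK3 and MPK6 were shared with neighbours in every library that lists them, and those of VQ9 in none. Of 17 genes of salicylic acid and camalexin defence, 3 were in all 8, and CBP60G and TGA3 were in 7. The 3 were PAD4 and SARD1, regulators of salicylic acid accumulation, and BAK1, a co-receptor kinase. The strongest BAK1 peak was shared with AT4G33440 in all 8 libraries. The strongest PAD4 peak lay in the promoter in 1 of 8 libraries, and that of SARD1 in 5. PAD3, the camalexin synthesis enzyme gene controlled by WRKY33, was in 3 libraries, and PR1, a salicylic acid marker gene, was in none.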

How the data were processed

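The authors processed reads of 8 HY5 libraries and 3 controls with HOMER 4.9.1, Bowtie2 2.3.0 and CASAVA 1.8.2 on TAIR10, per the submitters' processing notes. Per the file headers, HOMER findPeaks was run library by library with a false discovery rate of 0.001, and a peak needed 3 times the control tags (p 0.0001) and 2 times those of the surrounding 10 kb. The deposited signal is the tag count of a peak scaled to 10 M tags, with the control's tags beside it. The deposited score is the caller's, and the fold, as deposited, is a ratio of peak tags to control or local tags. Per the file headers, the control was scaled to the library, but in HY5-VP16 replicate 3 the library was scaled to the control. The authors assigned peaks to promoters (2000 bp upstream) or gene bodies and deposited a gene list per library, used here as given. A peak assigned to both was counted as a promoter peak.

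Each gene's strongest peak by score was given its percentile rank in the library. Members, gene lists and comparisons were chosen with earlier results of these data known. All 60 members matched the RefSeq table of TAIR10.1. That table was used for names, for the other WRKY loci and for the set of protein-coding genes behind the background shares. Named genes are members in all 8 libraries, in 1 construct only, with ranks that do not overlap, with the 5 best mean ranks or with shared peaks, and up to 4 examples of each subgroup or list. Genes named for a gene-body or construct pattern beyond this rule, such as WRKY18, WRKY41, WRKY53 and WRKY63, were chosen after their values were seen. Subgroups follow the usual classification of the family. No promoter or protein sequence was used, so a planned motif search was not run. Alternatives varied the fold, list length, position, rank measure, set and replicates. Scripts ran in Python 3.11.15 with matplotlib 3.10.9, scipy 1.17.1, pandas 2.3.3 and numpy 2.4.6.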

Additional observations from a re-analysis of the deposited data

How the results depend on the processing

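Of 228 alternative values for 36 results, 181 kept their direction or size, 38 moved and 9 changed sign. Ranking the 1913 genes among themselves, counting all 72 loci and comparing libraries within a set were added after seeing the data. With peaks of at least 5 times the control, the members in all 8 libraries fell from 15 to 1, and the means became 26.7 in HY5ox, 22.3 in HY5-VP16 and 35.0 in HY5-SRDX. With the 2958 strongest peaks of each library the 15 became 2, members in 1 construct rose from 6 to 14, and the means were 15.3, 20.3 and 21.5. Promoter peaks alone gave a HY5-SRDX mean of 43.5, and all 72 loci gave 53.5. Within 1000 bp upstream lay 46.9%, 45.1% and 43.0% of member peaks. The median rank among the 1913 was 66.7, 72.3 and 53.5, against 18.5, 35.2 and 19.2 among all peaks.

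Members whose ranks did not overlap numbered 3 (HY5ox and HY5-VP16), 3 (HY5ox and HY5-SRDX) and 5 (HY5-VP16 and HY5-SRDX). Among the 1913 the last 2 became 7 and 9, within set 1, where HY5ox has 1 library, the first 2 became 11 and 9 (73.3% and 60%, against 67.6% and 72.3% of all 1913 genes), and by tag count the last became 3. Ranking by fold turned the sign for WRKY17 (-6.61) and WRKY65 (5.09) between HY5ox and HY5-VP16, for WRKY33 (3.19), WRKY39 (-7.55) and WRKY57 (-5.86) between HY5ox and HY5-SRDX, and for WRKY23 (-8.87) and WRKY33 (4.16) between HY5-VP16 and HY5-SRDX. WRKY39 also turned within set 1 (-1.29) and WRKY23 among the 1913 (7.95), both between HY5ox and HY5-SRDX. The cause was not tested.

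Leaving out 1 library at a time gave 15 to 24 members in all libraries (24 without HY5-VP16 replicate 3), 6 to 7 in 1 construct, and 3 to 6, 4 to 11 and 5 to 10 separated members. The 11 and the 10 came without HY5-SRDX replicate 2. Without HY5-VP16 replicate 3, the HY5-VP16 median rank among all peaks was 21.2 in place of 35.2. The same-numbered HY5ox and HY5-VP16 libraries had deviations from their construct means that correlated at 0.29, 0.04 and 0.47 over 1913 genes. The pair at 0.04 was the one from different sets. For pairs with HY5-SRDX the values were -0.05 to 0.05. There each value comes with its opposite, since 2 libraries deviate equally from their mean. Both are in set 1, so these pairs cannot show a set effect. The labelled set did group HY5ox with HY5-VP16 libraries. In pairs of the same set, 7, 9 and 7 members differed one way throughout (46.7%, 60% and 46.7% of 15, against 43.4%, 72.3% and 51% of all 1913 genes), and 9, 13 and 11 by rank among the 1913. With the replicate block, 4, 5 and 8 members differed one way in every same-numbered pair, in place of 3, 3 and 5. The shares were 26.7%, 33.3% and 53.3%, against 25.8%, 65.7% and 64.4% of all 1913 genes, over 3, 2 and 2 pairs. Depth and list length did not go together, as HY5-VP16 replicate 3 was the deepest library with the fewest peaks. A gene not listed there had no peak past the caller's thresholds, which does not show it to be unbound. The planned motif search was not run.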

Other observations

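Of the 12 WRKY loci that are not among the 60 members, the libraries listed 0 to 10. They numbered 1, 0 and 1 in HY5ox replicates 1 to 3, and the HY5-VP16 libraries had 2, 4 and 0. The HY5-SRDX libraries had 10 and 3. As shares these were 8.33%, 0.0% and 8.33% in HY5ox, against 46.4%, 28.9% and 41.0% of protein-coding genes, and 16.7%, 33.3% and 0.0% in HY5-VP16, against 34.9%, 44.6% and 12.4%. HY5-SRDX replicate 1, at 83.3% against 52.5%, was the one library where the share was above that of protein-coding genes, and replicate 2 had 25% against 40.4%. None was in more than 4 libraries. WRKY19 and WRKY72 were in 4, and WRKY74 was in none. WRKY72 was strongest in HY5-SRDX replicate 1, at percentile 1.54 and 1278 bp upstream. Over all 72 loci, 43, 32 and 43 were listed in HY5ox, and HY5-VP16 had 43, 47 and 21. HY5-SRDX had 56 and 51.

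Among all peaks of a library, the strongest 10% held the strongest peak of 7, 2 and 4 members in HY5ox. For HY5-VP16 it was 4, 6 and 0, and for HY5-SRDX 10 and 14. As a share of listed members this was 21.7% and 29.2% in HY5-SRDX, against 13% and 11.6% of all listed genes, and 6.25% to 16.7% in HY5ox, against 12% to 12.4%. In HY5-VP16 it was 9.76%, 14% and 0.0%, against 12%, 12.4% and 11.4%. The HY5-SRDX shares were above those of all other libraries. WRKY63 was the best-ranked member of HY5-SRDX replicate 2, at 0.860.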
